A study of Mus musculus with 10 samples.

Results

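The genes described here are 27 genes of inhibitory signalling in the brain, taken from the 43629 rows of a hippocampal count table by matching the Ensembl identifier of each row to a fixed list of gene symbols in the GENCODE annotation of the mouse genome GRCm38. They are 10 subunits of the GABA-A receptor, 5 genes of GABA synthesis, transport and breakdown, 2 genes of the inhibitory postsynapse, 6 markers of interneuron classes and 4 genes of interneuron development and signalling. All 27 were matched and all 27 passed the filter on low counts, which left 17237 genes for testing. The list was fixed by name and not by any measured value, but it was drawn up with earlier results of these data known.

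GABA is the main inhibitory transmitter of the forebrain. It is made from glutamate by the glutamate decarboxylases, loaded into vesicles by the vesicular transporter, and acts on GABA-A receptors, pentameric chloride channels combined from alpha, beta, gamma, delta and related families. In the hippocampus, GABA is released by interneurons that are a minority of the neurons and are sorted into classes by the calcium-binding proteins and neuropeptides they make, whereas the receptors sit mostly on the far more numerous pyramidal and granule cells.

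The whole hippocampus was taken from 5 Dp1Tyb and 5 wild-type (WT) male littermates, labelled as strain C57BL/6J.129P2 and 18 weeks of age, from a line that per the study's methods had been crossed back to C57BL/6JNimr over many generations. Dp1Tyb mice carry Dp(16Lipi-Zbtb21)1TybEmcf, a tandem duplication of the stretch of mouse chromosome 16 from Lipi to Zbtb21 that is orthologous to a large part of the human chromosome trisomic in Down syndrome. It models an extra dose of those genes in all cells of the body from conception, and WT mice carry no duplication. Each mouse gave 1 poly(A) library, and read counts per gene were deposited.

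The libraries held between 18227684 and 43692270 counted reads, a ratio of 2.4. Of 114 tested genes inside the duplicated segment (positions 75540514 to 97962622 of chromosome 16), 68 were called, all of them higher in Dp1Tyb, and no gene of the inhibitory list lies inside it. The 8 markers of hippocampal principal neurons summed to between 937 and 1110 CPM (counts scaled to library size) in WT. In Dp1Tyb they summed to between 948 and 1040 CPM, and none was called in the main edgeR fit. Of the 8, 4 had an unadjusted edgeR p under 0.05, against 14.4% of all genes. Prox1, C1ql2 and Dsp were lower in Dp1Tyb and Neurod6 was higher, with log2 fold changes of -0.18, -0.49, -0.21 and 0.15. Other tissue was present in unequal amounts. The 7 markers of choroid plexus summed to between 414 and 5290 CPM in WT and between 36.8 and 3790 CPM in Dp1Tyb, with all 7 lower in Dp1Tyb and none called. The 5 blood markers summed to between 43.0 and 93.2 CPM in WT and between 33.4 and 67.1 CPM in Dp1Tyb. The list for thalamus summed to 68.6 to 76.7 CPM in WT and 70.3 to 81.5 CPM in Dp1Tyb. Striatum and septum gave 114 to 148 CPM and 107 to 133 CPM, and neocortex 199 to 220 CPM and 204 to 214 CPM. These sums overlapped between the genotypes, and no gene of the 3 lists was called. At an unadjusted edgeR p under 0.05 there were 2 of 6 genes for thalamus, 2 of 7 for striatum and septum and 0 of 5 for neocortex. Rgs16 and Trpc4 were higher in Dp1Tyb and Lef1 and Ppp1r1b lower, with log2 fold changes of 0.22, 0.21, -0.32 and -0.63. Of the 3 lists only Lef1 did not overlap between the genotypes, against 3.68% of all genes. The library WT 2 stood apart by genes of cerebellar granule cells, which were picked after their values had been seen: Gabra6 had 98 reads in WT 2 and at most 1 read in any other library, Cbln3 stood at 13.9 CPM against at most 1.45 CPM elsewhere, and Fat2 at 9.03 CPM against at most 1.00 CPM. The part of these tissues in the results that follow was not tested. Pvalb, Gabrd and Syt2, which cerebellar cells also make, are given with and without WT 2, but other genes of the lists may be affected too.

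In all, 3 genes of the list were higher in Dp1Tyb hippocampus. Cnr1, the cannabinoid receptor whose densest but not only hippocampal expression is in cholecystokinin basket cells, was higher by 1.29-fold. Vip, the peptide of an interneuron class that contacts other interneurons, was higher by 1.34-fold. Gad2, the decarboxylase that is concentrated at nerve endings, was higher by 1.27-fold. These 3 of 27 were called by edgeR's quasi-likelihood test at an adjusted p under 0.05, with p-values adjusted over all 17237 genes. Across all genes the same test called 191, or 1.11%, and 150, or 0.87%, as higher in Dp1Tyb. No gene of the list was called lower. At an unadjusted p under 0.05 there were 9 of the 27, all higher in Dp1Tyb, against 14.4% of all genes in either direction. In whole-tissue RNA, more cells of a type and more RNA per cell cannot be told apart.

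The values of the 5 WT and 5 Dp1Tyb mice did not overlap for 6 of the 27 genes, each of them higher in Dp1Tyb: Cnr1, Vip, Gad2, Gad1, Lhx6 and Dlx1. Over all genes tested, 3.68% did not overlap in either direction and 2.56% did so with Dp1Tyb higher. The log2 fold change was positive for 21 of the 27 genes, or 77.8%, where 48.7% of all tested genes were positive. The median log2 fold change was 0.07 over the list and -0.0041 over all genes tested. The 3 called genes came from the groups of GABA synthesis, class markers and interneuron signalling, and none of the receptor subunits was called.

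**Figure D1:**
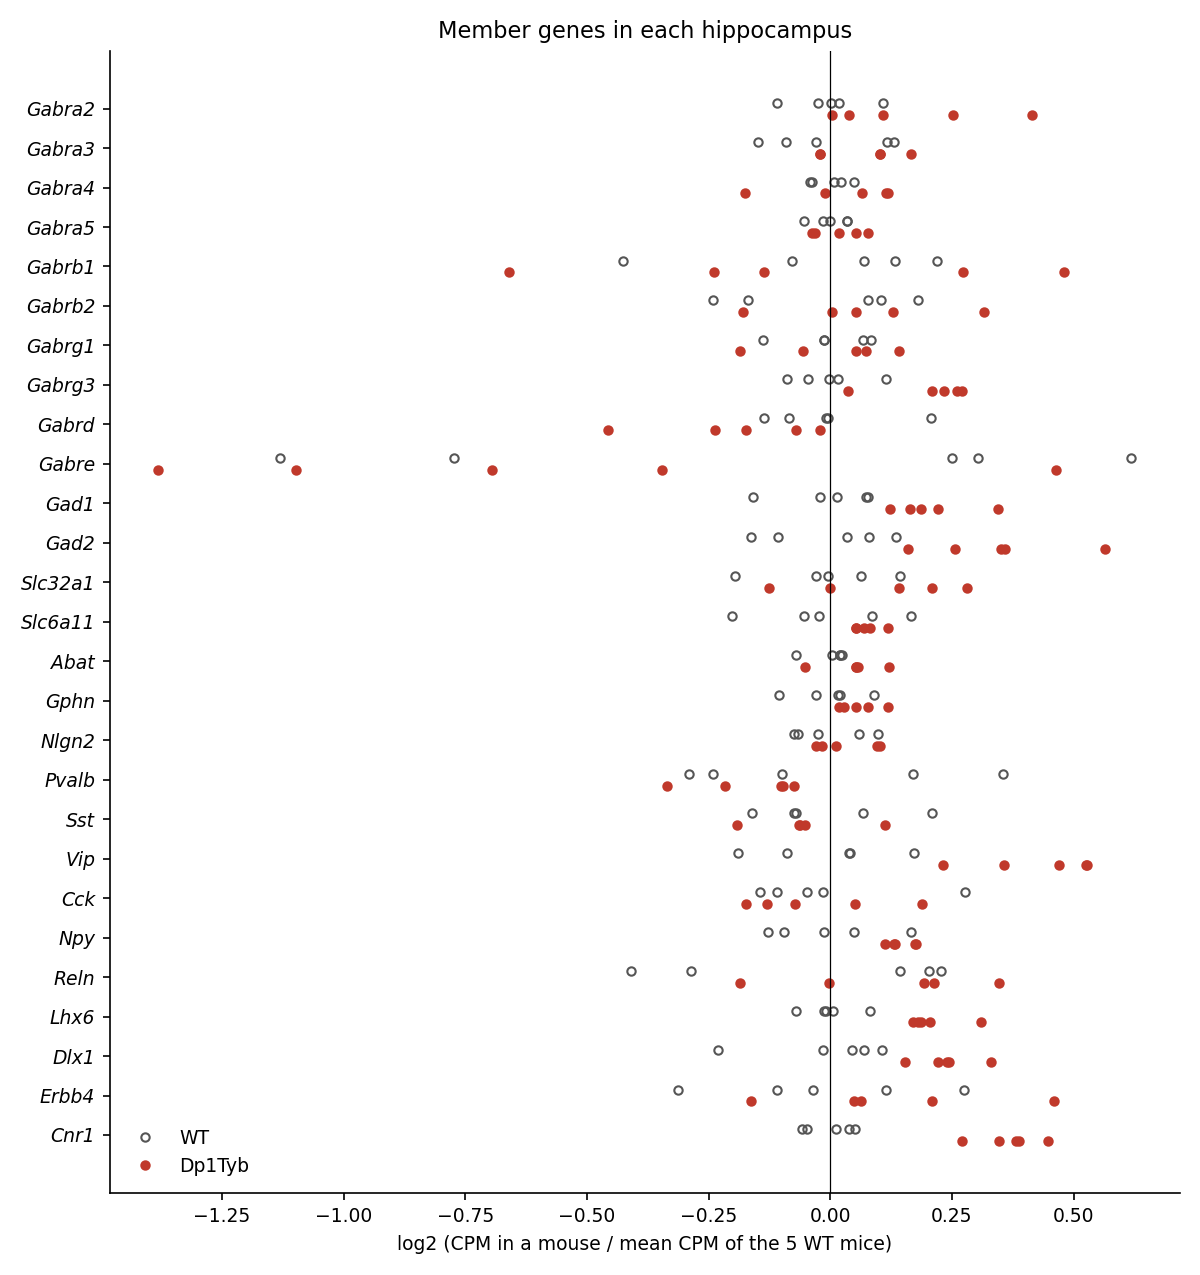
Level of each of the 27 genes in each mouse, as log2 of its CPM over the mean CPM of the 5 WT mice (x axis), with WT as open and Dp1Tyb as filled circles and the genes on the y axis ordered by role. Filled circles lie wholly to the right of open ones for Cnr1, Vip, Gad2, Gad1, Lhx6 and Dlx1, while the receptor subunits at the top overlap.

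Cnr1, Vip and Gad2 are the called genes, and the promoter of Sst, a peptide of another interneuron class, is printed beside theirs for comparison, since its cAMP response element is a textbook example. The cAMP response element has the palindrome TGACGTCA as its full form and TGACG as its core, and it is bound by the activity-dependent factor CREB. Each sequence runs 5′ to 3′ on the gene's strand, from 250 bases before to 50 bases after the RefSeq transcription start in GRCm38.p6. Any TGACG or its reverse complement CGTCA is in capitals.
Cnr1 (chr4:33924394-33924693, plus strand): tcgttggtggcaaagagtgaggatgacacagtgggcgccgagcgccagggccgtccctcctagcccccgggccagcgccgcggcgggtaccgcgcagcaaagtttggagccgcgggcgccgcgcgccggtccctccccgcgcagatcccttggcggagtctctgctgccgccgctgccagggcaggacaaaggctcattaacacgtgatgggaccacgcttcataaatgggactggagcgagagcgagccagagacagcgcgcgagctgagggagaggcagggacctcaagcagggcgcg
Vip (chr10:5638968-5639267, plus strand): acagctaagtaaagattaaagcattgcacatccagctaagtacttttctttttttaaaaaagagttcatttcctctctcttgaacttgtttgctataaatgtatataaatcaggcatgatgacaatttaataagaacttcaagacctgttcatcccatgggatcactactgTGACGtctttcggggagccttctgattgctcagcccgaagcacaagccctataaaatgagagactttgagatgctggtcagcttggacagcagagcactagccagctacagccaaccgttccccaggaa
Gad2 (chr2:22622077-22622376, plus strand): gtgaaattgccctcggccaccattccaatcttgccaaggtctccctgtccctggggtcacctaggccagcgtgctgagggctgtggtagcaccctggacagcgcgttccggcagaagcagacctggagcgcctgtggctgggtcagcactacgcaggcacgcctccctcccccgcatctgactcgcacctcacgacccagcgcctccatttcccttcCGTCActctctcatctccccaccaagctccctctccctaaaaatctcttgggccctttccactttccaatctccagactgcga
Sst (chr16:23890795-23891094, minus strand): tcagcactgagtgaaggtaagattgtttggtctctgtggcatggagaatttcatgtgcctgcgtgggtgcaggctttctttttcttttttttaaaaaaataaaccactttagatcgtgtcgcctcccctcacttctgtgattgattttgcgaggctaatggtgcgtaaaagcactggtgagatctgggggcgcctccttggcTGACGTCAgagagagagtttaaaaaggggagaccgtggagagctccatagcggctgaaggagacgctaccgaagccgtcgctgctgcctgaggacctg

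In these windows the core began 79 bases before the start of Vip, and its reverse complement began 33 bases before the start of Gad2. The full palindrome, which holds the core on both strands, began 48 bases before the start of Sst. The Cnr1 window held none, and Cnr1 has 3 start sites in the table, of which the printed one is nearest to the GENCODE start. Searched on both strands, TGACG was found in 6 of the 25 genes of the list that have a window and in 23% of all 20591 promoters of the same length. TGACGTCA was found in 1 of the 25 and in 2.22% of all promoters. Gabrd and Abat had no window, and those of Gad1 and Dlx1 used RefSeq starts 9057 and 1332 bases from the GENCODE start. Of 3 further motifs searched on both strands, TAATTA was found in 1 of the 25 genes and 4.93% of all promoters, TATAAA in 4 and 13.2%, and GGGCGG in 13 and 42.7%. The share with the core was thus about that of all promoters. Of the 3 called genes 2 held it, too few to set against that share.

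Both decarboxylases of GABA synthesis were higher in each Dp1Tyb mouse than in any WT mouse. Gad2 (ENSMUSG00000026787, chromosome 2, 22622205 to 22693874) stood at 135.8, 154.6, 160.6, 150 and 130.8 CPM in WT mice 1 to 5 and at 163.4, 186.6, 187.7, 216.5 and 174.7 CPM in Dp1Tyb mice 1 to 5. The groups did not overlap, but the gap between the highest WT mouse and the lowest Dp1Tyb mouse was narrow, and Dp1Tyb 4 was well above the others. Between genotypes, Gad2 differed by 0.34 ± 0.07 on the log2 scale (SE, 95% interval 0.19 to 0.50, edgeR adjusted p = 0.0410). Leaving out any 1 of 7 mice (WT 1, 2, 4 or 5, or Dp1Tyb 2, 3 or 4) took the adjusted p above 0.05, to as much as 0.104.

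Gad1 (ENSMUSG00000070880, chromosome 2, 70553072 to 70602014) makes the decarboxylase found throughout the cell, which supplies most of the brain's GABA. Its levels were 316.9, 339.1, 338.4, 324.8 and 288.2 CPM in WT and 350.1, 365.9, 374.6, 408.1 and 360.3 CPM in Dp1Tyb. Every Dp1Tyb mouse was above every WT mouse, with WT 5 the lowest and Dp1Tyb 4 the highest, as for Gad2. Its difference of 0.21 ± 0.05 on the log2 scale (SE) missed the threshold in edgeR, with an adjusted p of 0.0765, and passed in DESeq2, with an adjusted p of 0.0117. The ratio of Gad2 to Gad1 CPM within a mouse was 0.429, 0.456, 0.475, 0.462 and 0.454 in WT and 0.467, 0.510, 0.501, 0.530 and 0.485 in Dp1Tyb. Dp1Tyb 1, at 0.467, lay below WT 3, at 0.475, and the remaining Dp1Tyb mice lay above all WT mice.

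The transporters and the breakdown enzyme showed no called difference. Slc32a1, the vesicular GABA transporter that interneurons need for release, averaged 46.3 CPM (SD 3.99, n = 5) in WT and 49.9 CPM (SD 5.58, n = 5) in Dp1Tyb, a log2 fold change of 0.11 ± 0.08 (SE). Exons of the antisense gene Gm14205 overlap 24.9% of its exon length, and reads of the pair could be told apart only if strand was used in counting, which was not stated. Slc6a11, the GABA transporter of astrocytes, differed by 0.08 ± 0.06 on the log2 scale, and the 5 Dp1Tyb mice lay close together, between 147.8 and 154.8 CPM, inside the WT range of 123.9 to 160.0 CPM. Abat, the transaminase that degrades GABA, lies on chromosome 16 outside the duplicated segment. It averaged 286.7 CPM (SD 7.85) in WT mice and 296.2 CPM (SD 12.6) in Dp1Tyb mice, and the 95% interval of its log2 fold change ran from -0.03 to 0.13. The adjusted p-values of these 3 genes were between 0.557 and 0.581.

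Cnr1 (ENSMUSG00000044288, chromosome 4, 33924593 to 33948831) had the smallest p-value of the list. It encodes the CB1 receptor, through which endocannabinoids restrain transmitter release, and its densest expression in the hippocampus is in cholecystokinin basket cells. The 5 WT mice held 190.5, 198.6, 202.5, 204.1 and 189.3 CPM and the 5 Dp1Tyb mice 237.8, 257.6, 256.5, 268.8 and 250.4 CPM. The groups were well separated, with the lowest Dp1Tyb mouse above the highest WT mouse by more than the whole WT range. On the log2 scale Cnr1 differed by 0.37 ± 0.04 (SE, 95% interval 0.28 to 0.45, edgeR adjusted p = 0.000126), and leaving out each mouse in turn kept it between 0.34 and 0.39 with the gene called in all 10 fits. Cck, the peptide of the same basket cells and also of many pyramidal cells, overlapped fully between the genotypes. Cck differed by -0.02 ± 0.08 on the log2 scale (adjusted p = 0.930), and levels ran from 138.7 to 185.7 CPM in WT and from 135.9 to 174.8 CPM in Dp1Tyb.

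**Figure D2:**
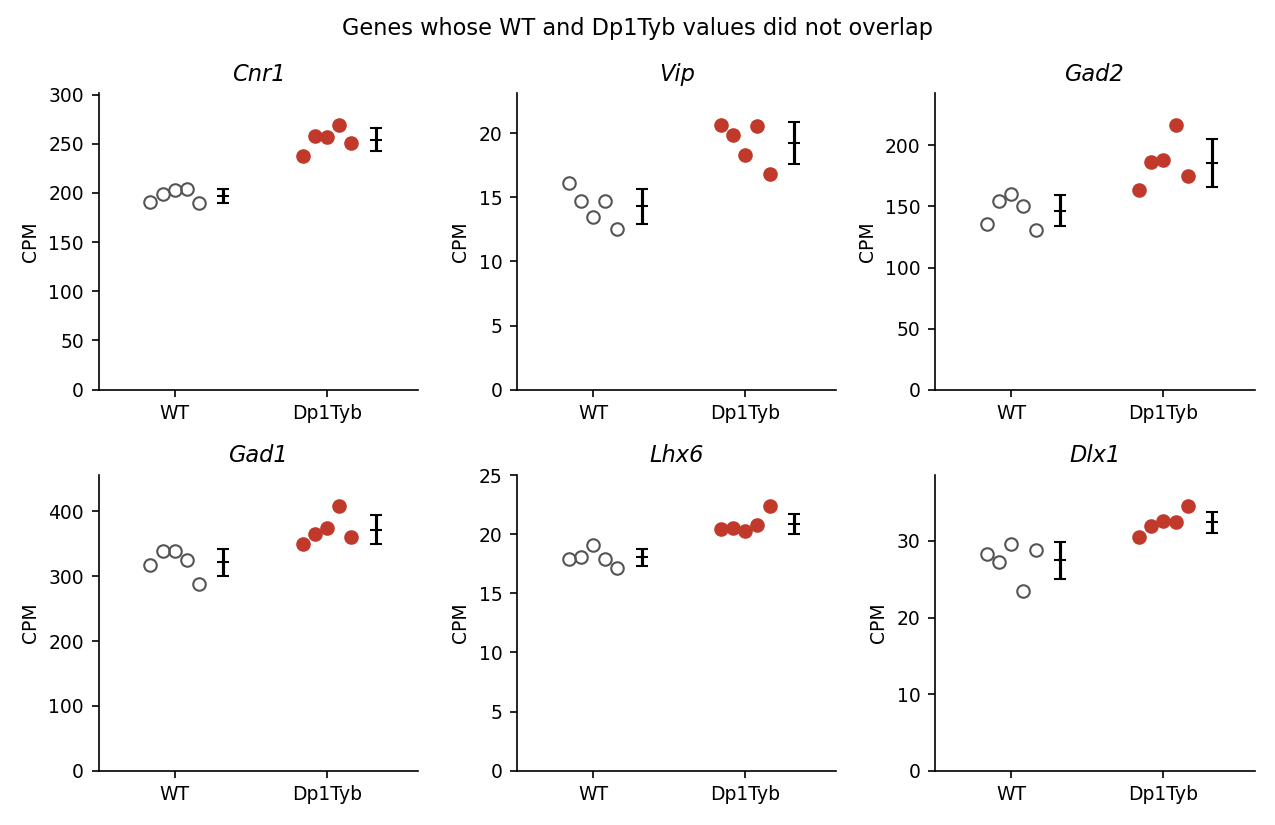
CPM (y axis, from 0) in each WT (open circles) and Dp1Tyb (filled circles) mouse for the 6 genes whose genotypes did not overlap; bars to the right of the points are the mean and SD of 5 mice. The separation is widest for Cnr1, whose WT mice lie between 189.3 and 204.1 CPM and Dp1Tyb mice between 237.8 and 268.8 CPM.

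Of the interneuron class markers, Vip (ENSMUSG00000019772, chromosome 10, 5639218 to 5647617) was the only one of 6 to be called. Vip interneurons release vasoactive intestinal peptide and largely inhibit other interneurons. The gene stood at 16.11, 14.69, 13.45, 14.71 and 12.54 CPM in WT and at 20.61, 19.81, 18.32, 20.57 and 16.79 CPM in Dp1Tyb. WT 1 was nearly as high as Dp1Tyb 5, and otherwise the groups were clearly apart. Vip differed by 0.43 ± 0.08 on the log2 scale (SE, 95% interval 0.25 to 0.60, edgeR adjusted p = 0.0209). The adjusted p rose above 0.05, to at most 0.0700, when any 1 of 6 mice was left out (WT 3, 4 or 5, or Dp1Tyb 1, 2 or 4).

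Npy, a peptide of ivy and neurogliaform cells, ranged from 27.14 to 33.24 CPM in WT and from 32.03 to 33.50 CPM in Dp1Tyb. Its WT range was wide and its Dp1Tyb range narrow, and WT 2 alone lay among the Dp1Tyb mice. Npy differed by 0.14 ± 0.06 on the log2 scale (SE), with an unadjusted p of 0.0226 and an adjusted p of 0.272. Without WT 2 the log2 fold change was 0.18, with an adjusted p of 0.134.

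Markers of the Sst and Pvalb classes, which together cover many hippocampal interneurons, had no called difference. Sst, the peptide of dendrite-targeting cells, was at 118.1, 125.7, 125.4, 152.6 and 138.2 CPM in WT and at 126.4, 126.3, 127.4, 115.6 and 142.7 CPM in Dp1Tyb, fully overlapping, with a 95% interval of the log2 fold change from -0.20 to 0.10. Pvalb, the calcium-binding protein of fast-spiking basket cells, was at 30.19, 34.32, 25.05, 21.95 and 22.71 CPM in WT and at 23.11, 25.48, 25.03, 21.27 and 25.09 CPM in Dp1Tyb. WT 1 and WT 2 were the high samples of Pvalb, and the other mice of both genotypes lay together. The log2 difference of Pvalb was -0.16 ± 0.11 (SE, adjusted p = 0.525) with all mice and -0.07 without WT 2. Reln, the matrix protein of Cajal-Retzius and neurogliaform cells, had one of the widest spreads, with 64.2 to 99.9 CPM in WT and 75.0 to 108.4 CPM in Dp1Tyb. Its log2 fold change of 0.12 ± 0.13 (SE) ran from 0.04 without WT 5 to 0.19 without Dp1Tyb 1, and was 0.16 without WT 2.

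Transcription factors of interneuron development are still made in the adult at low levels. Lhx6, which specifies the Sst and Pvalb classes, stood at 17.88, 18.10, 19.09, 17.92 and 17.16 CPM in WT and at 20.42, 20.51, 20.28, 20.78 and 22.36 CPM in Dp1Tyb. The groups did not overlap, and 4 of the 5 Dp1Tyb mice lay between 20.28 and 20.78 CPM. Lhx6 differed by 0.21 ± 0.05 on the log2 scale (SE, edgeR adjusted p = 0.0820, DESeq2 adjusted p = 0.0292). Dlx1, a homeobox factor of interneurons born in the ganglionic eminences, was at 28.36, 27.21, 29.60, 23.43 and 28.82 CPM in WT and at 30.58, 32.02, 32.55, 32.47 and 34.54 CPM in Dp1Tyb. The Dp1Tyb mice were all above the WT mice, of which WT 4 was low. Dlx1 differed by 0.24 ± 0.06 on the log2 scale (SE, edgeR adjusted p = 0.0959, DESeq2 adjusted p = 0.0237), and its exons overlap those of the antisense gene Dlx1as over 6.21% of their length. Erbb4, the neuregulin receptor of interneurons, varied far more between mice, from 62.3 to 93.6 CPM in WT and from 69.1 to 106.4 CPM in Dp1Tyb, and it differed by 0.14 ± 0.12 on the log2 scale (SE, adjusted p = 0.607). For Erbb4 the log2 fold change was 0.04 without Dp1Tyb 4, 0.07 without WT 1 and 0.22 without WT 3.

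DESeq2 called 6 of the 27 genes, the same 6 that did not overlap, and 506 of the 16056 genes to which it gave an adjusted p, or 3.15%. It gave none for Gabre.

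**Figure D3:**
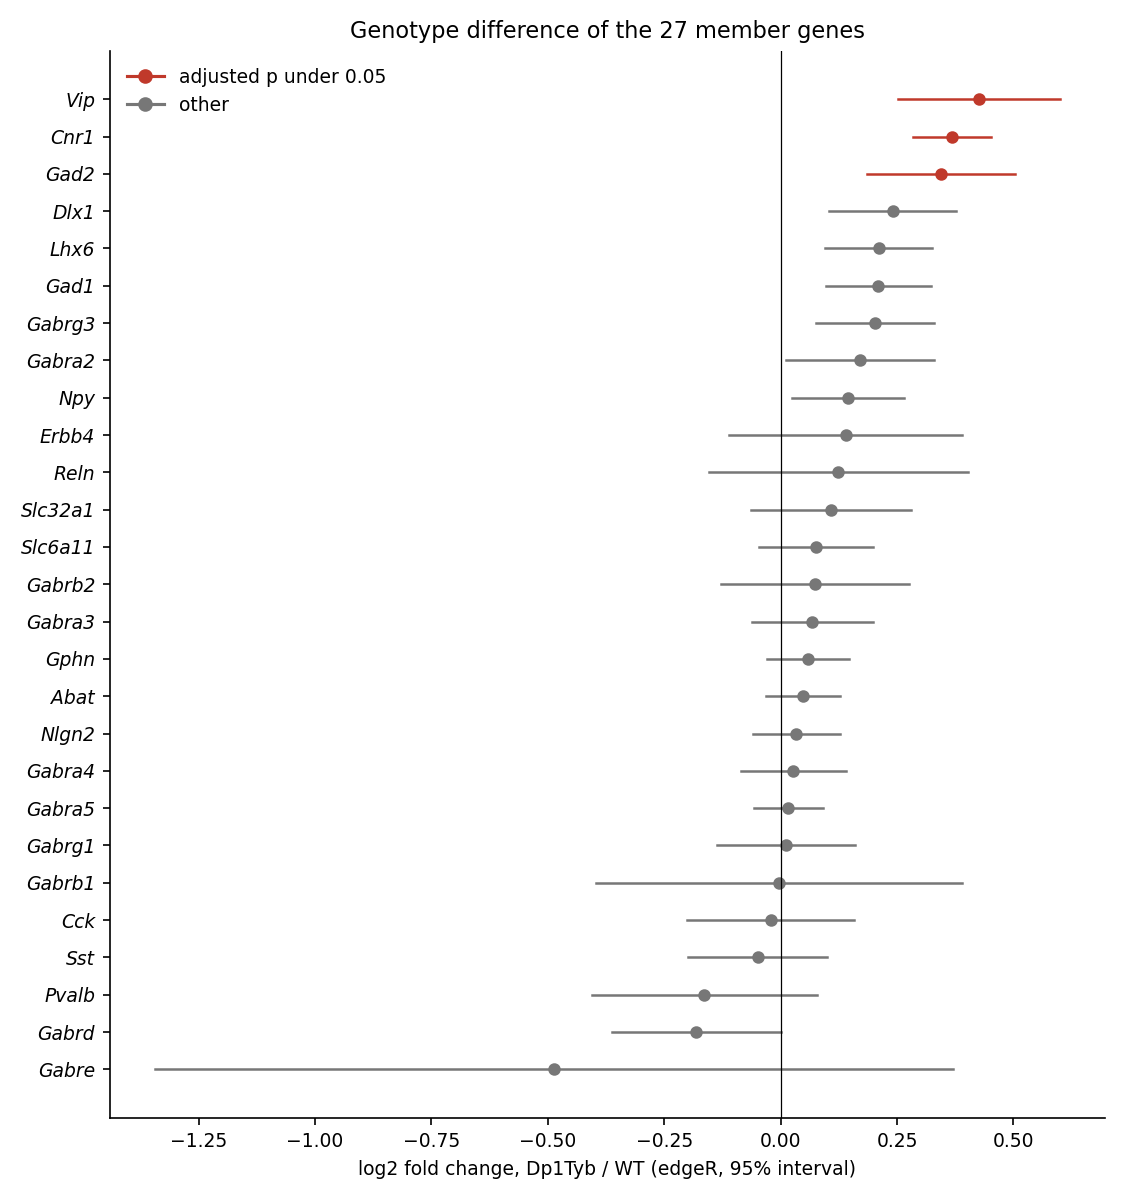
Log2 fold change of each of the 27 genes between Dp1Tyb and WT (x axis, points) with its 95% interval from edgeR (bars), ordered by size, with called genes in red. Vip, Cnr1 and Gad2 lie at the top with intervals above 0, and the widest interval belongs to Gabre, from -1.34 to 0.37.

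On the receiving side, none of the 10 receptor subunits was called by edgeR or DESeq2, and 2 (Gabrg3 and Gabra2, both higher in Dp1Tyb) had an unadjusted p under 0.05. Of the 10, 7 had a positive and 3 a negative log2 fold change, with a median of 0.02. Levels were compared between subunits in RPKM, which divides CPM by the exon length in kilobases. Gabra5, the alpha subunit of extrasynaptic receptors on pyramidal dendrites, was the highest of the 10 at 56.7 RPKM in WT and 57.4 RPKM in Dp1Tyb. Gabrb2 (19.0 RPKM in WT), Gabra3 (17.9) and Gabra4 (17.6) followed, and their ranges over WT mice overlapped. Gabrd (9.63 RPKM) and Gabra2 (7.23) came next, without overlap between them in WT. Gabrg1 (2.82 RPKM), Gabrb1 (2.79) and Gabrg3 (2.0) were lower, and the range of Gabrb1 overlapped both others. Gabre, at 0.135 RPKM and between 7 and 26 reads per library, was the lowest.

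**Figure D4:**
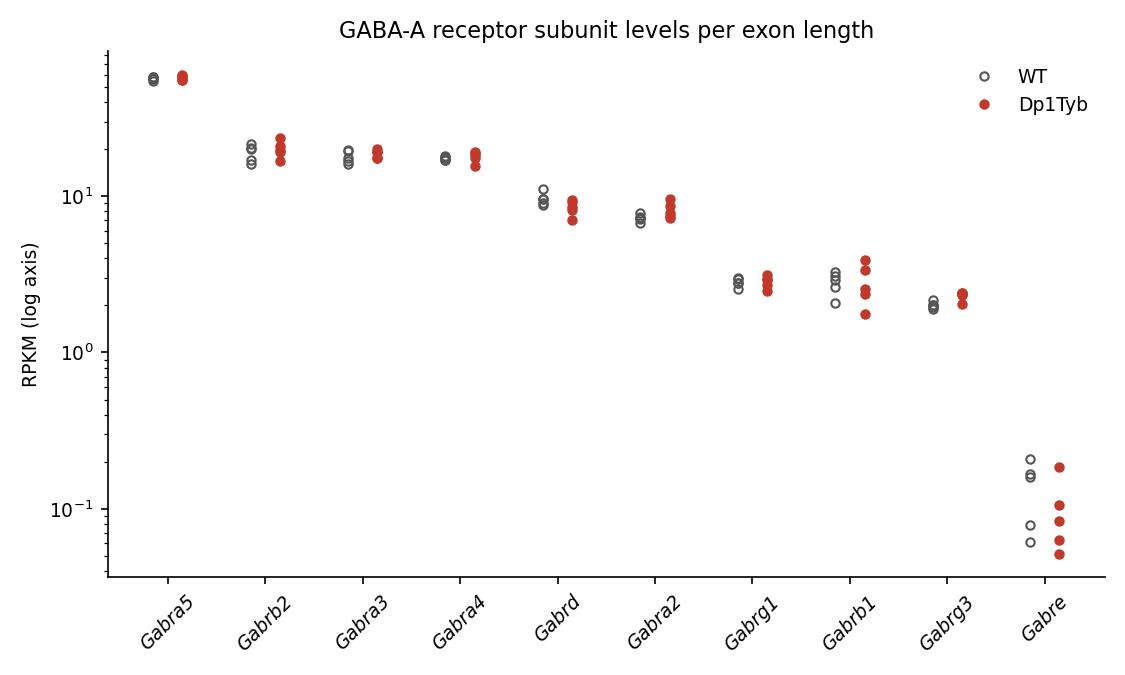
RPKM (y axis, log scale) of the 10 GABA-A receptor subunits in each WT (open circles) and Dp1Tyb (filled circles) mouse, ordered by the WT mean. Gabra5 is highest at 56.7 RPKM in WT, Gabre lowest at 0.135 RPKM, and the genotypes overlap for every subunit.

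Most GABA-A genes lie in clusters along the chromosomes, and no gene of any cluster was called. On chromosome 5, within 1400 kb, lie Gabrg1, Gabra2, Gabra4 and Gabrb1. Gabra2, the alpha subunit enriched at the axon initial segment, stood at 59.54, 55.29, 51.24, 54.27 and 55.96 CPM in WT and at 55.38, 59.60, 65.79, 73.64 and 56.76 CPM in Dp1Tyb. Only Dp1Tyb 3 and Dp1Tyb 4 lay clearly above the WT mice. Dp1Tyb 1 and Dp1Tyb 5 lay inside the WT range, and Dp1Tyb 2 was level with the highest WT mouse. Gabra2 differed by 0.17 ± 0.07 on the log2 scale (SE), with an unadjusted p of 0.0364 and an edgeR adjusted p of 0.312. Without Dp1Tyb 4 the log2 fold change was 0.10, with an unadjusted p of 0.111. Gabra4, the partner of the delta subunit in dentate granule cells, differed by 0.03 ± 0.05 and Gabrg1 by 0.01 ± 0.07 on the log2 scale. Gabrb1 was the most variable of the 4, with 28.76 to 44.95 CPM in WT and 24.44 to 53.86 CPM in Dp1Tyb, and its log2 fold change of -0.0034 had a 95% interval of -0.40 to 0.39. Gabra4 and Gabrb1 share 46 bases of exon on opposite strands.

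Gabrg3 and Gabra5 lie side by side on chromosome 7, within 794 kb. Gabrg3, a minor gamma subunit, was at 22.48, 25.88, 23.15, 24.16 and 23.87 CPM in WT and at 24.53, 28.10, 27.63, 28.63 and 28.84 CPM in Dp1Tyb. Overlap came from WT 2 and Dp1Tyb 1 alone, and the other Dp1Tyb mice were above all WT mice. The log2 difference of 0.20 ± 0.06 (SE) had an unadjusted p of 0.0042 and an edgeR adjusted p of 0.133. Gabra5 had the tightest values of the whole list, with 162.4 to 172.7 CPM in WT and 164.2 to 178.0 CPM in Dp1Tyb, and the 95% interval of its log2 fold change ran only from -0.06 to 0.09. A difference of the size estimated for Gad2, a gene picked by its call in these data, lies outside that interval.

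On the X chromosome, Gabra3, an alpha subunit of early development that persists in the adult, differed by 0.07 ± 0.06 on the log2 scale. Its neighbours within 587 kb, Gabre and Gabrq, the epsilon and theta subunits, had log2 fold changes of -0.49 ± 0.40 and 0.23 ± 0.33 at levels under 1 CPM. Neither value was distinguishable from 0 at this depth. On chromosome 11, Gabrb2, the main beta subunit of synaptic receptors, ran from 102.3 to 137.1 CPM in WT and from 106.9 to 150.5 CPM in Dp1Tyb, with a log2 fold change of 0.07 ± 0.09 (SE).

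Gabrd, on chromosome 4, encodes the delta subunit of the tonic receptors of dentate granule cells and was the subunit with the lowest p-value among those lower in Dp1Tyb. It stood at 27.55, 31.99, 25.21, 26.12 and 27.61 CPM in WT and at 26.36, 27.30, 23.51, 24.57 and 20.17 CPM in Dp1Tyb. Of the Dp1Tyb mice, 3 were below every WT mouse, Dp1Tyb 5 being the lowest, and the other two lay inside the WT range. Gabrd differed by -0.18 ± 0.08 on the log2 scale (SE), with an unadjusted p of 0.0505 and an edgeR adjusted p of 0.348. Cerebellar granule cells also make Gabrd, and WT 2, which held cerebellar reads, had the highest value. Without WT 2 the log2 fold change was -0.13 (edgeR adjusted p = 0.485), and without Dp1Tyb 5, the lowest mouse, it was -0.12 (edgeR adjusted p = 0.416). The part of cerebellar reads in the Gabrd difference was not tested. Among the granule cell markers of the dentate gyrus, Prox1 differed by -0.18 ± 0.06 (SE, edgeR adjusted p = 0.184) and C1ql2 by -0.49 ± 0.13 (SE, edgeR adjusted p = 0.0906) on the log2 scale, in the same direction as Gabrd. C1ql2 was called in edgeR with no filter on low counts (adjusted p = 0.0354) and without WT 1 (0.0275). Its edgeR adjusted p was at most 0.205 when each mouse was left out. WT 5 was its high sample, at 108 CPM against 56.2 to 74.3 CPM in the other WT mice. Without WT 5 the log2 fold change of C1ql2 was -0.34 (edgeR adjusted p = 0.0807).

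At the postsynapse, Gphn, which encodes the scaffold gephyrin that anchors the receptors, averaged 76.0 CPM (SD 3.77) in the 5 WT mice and 79.2 CPM (SD 2.23) in the 5 Dp1Tyb mice. Nlgn2, the adhesion molecule of inhibitory synapses, averaged 276.9 CPM (SD 14.8) and 283.4 CPM (SD 12.4). Their log2 fold changes were 0.06 ± 0.04 and 0.03 ± 0.04 (SE), with upper 95% bounds of 0.15 and 0.13. Both bounds lie under the lower bound of Gad2, but Gad2 was picked by its call in these data and no test between genes was run.

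A wider list of 61 GABA and interneuron genes, none of them among the 27, was tested in the same fit. Of these, 60 were matched by symbol and 55 passed the filter, and Gabra6, Gabrr1, Gabrr3, Lhx8 and Chodl did not. Of the 55, 1 was called, Tac2, higher in Dp1Tyb, a share near the 1.11% of all genes. At an unadjusted p under 0.05 there were 12 higher and 2 lower, where 14.4% of all genes passed (1373 higher and 1104 lower of 17237). By sign, 36 had a positive and 19 a negative log2 fold change, and the median was 0.05. Of the interneuron class markers, 15 of 19 were positive, with a median of 0.16. The 12 transcription factors had a median of 0.05, the 16 genes of receptor trafficking and the inhibitory synapse one of 0.01, and the 6 of GABA transport and metabolism one of -0.02, with none called in any of the 3 groups. Both further subunits tested, Gabrq and Gabrr2, were uncalled.

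Tac2 (ENSMUSG00000025400, chromosome 10, 127724478 to 127731768) encodes neurokinin B, a peptide of a small set of forebrain interneurons and of the habenula next to the hippocampus. Its levels were 2.021, 2.787, 1.789, 1.968 and 1.772 CPM in WT and 4.630, 3.990, 3.799, 3.878 and 3.376 CPM in Dp1Tyb. All Dp1Tyb mice were above all WT mice, and WT 2 was the high WT sample. Tac2 differed by 0.93 ± 0.14 on the log2 scale (SE, 95% interval 0.63 to 1.24, edgeR adjusted p = 0.00404), a 1.91-fold rise, and Tac2 was called in all 10 fits that left out 1 mouse. Markers of the habenula were looked up after the values of Tac2 had been seen. Gpr151 had a log2 fold change of 0.07 ± 0.20, Chrna3 of 0.20 ± 0.22 and Chrnb4 of -0.43 ± 0.50 (SE), with adjusted p-values between 0.711 and 0.908, and Pou4f1 had between 0 and 2 reads per library.

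**Figure D5:**
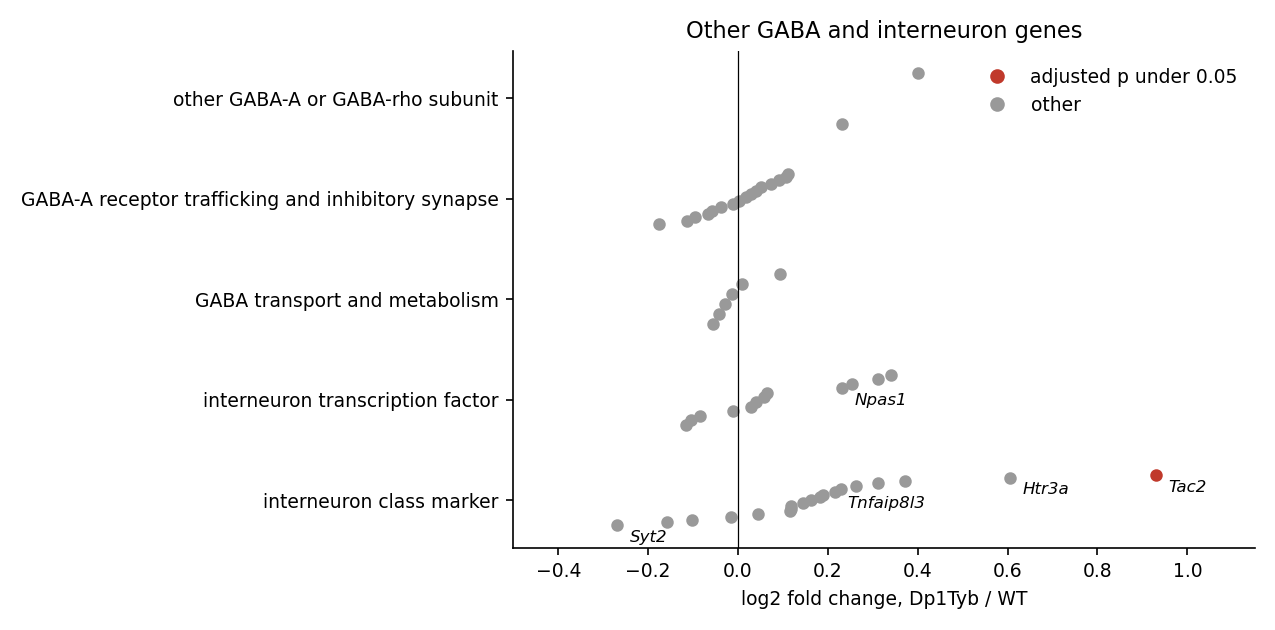
Log2 fold change between Dp1Tyb and WT (x axis) of the 55 tested genes of the wider list, one point a gene, in rows by role (y axis) and spread vertically within a row only for legibility, with called genes in red. Tac2 lies far to the right at 0.93, followed by Htr3a at 0.60, and the trafficking genes lie between -0.18 and 0.11.

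Htr3a, the serotonin receptor subunit that marks the interneuron lineage to which Vip cells belong, was at 7.773, 7.114, 12.25, 8.899 and 7.088 CPM in WT and at 12.72, 11.76, 13.60, 14.78 and 12.36 CPM in Dp1Tyb. WT 3 was as high as the lower Dp1Tyb mice, and the other WT mice were well below. The log2 difference of 0.60 ± 0.13 (SE) had an adjusted p of 0.0512 in edgeR and 0.000718 in DESeq2, and without WT 3 its edgeR adjusted p was 0.0015. Npas1, a transcription factor of interneurons of the same caudal origin, ranged from 12.65 to 15.14 CPM in WT and from 15.16 to 17.61 CPM in Dp1Tyb, just short of overlap, and differed by 0.23 ± 0.07 on the log2 scale (SE, adjusted p = 0.163). Tnfaip8l3 was at 21.68 to 24.25 CPM in WT and 23.52 to 30.57 CPM in Dp1Tyb, and differed by 0.22 ± 0.07 on the log2 scale (SE, adjusted p = 0.180). Beside Tac2 and Npas1, Nsf, which encodes the vesicle fusion ATPase of all synapses, did not overlap either, and differed by 0.11 ± 0.04 on the log2 scale (SE, adjusted p = 0.243). Thus 3 of the 55 genes did not overlap, against 3.68% of all genes. Nsf is named after its values were seen, as is the pair of genes that were lower at an unadjusted p under 0.05. The pair were Syt2, the calcium sensor of fast-spiking terminals and also of cerebellar and brainstem neurons, at -0.27 ± 0.11 (SE, adjusted p = 0.288, and -0.19 without WT 2), and Insyn1, a component of the inhibitory postsynapse, at -0.18 ± 0.07 (SE, adjusted p = 0.283).

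The values of the list moved with individual mice as well as with genotype. Dp1Tyb 4 had the highest CPM of the 10 mice for 11 of the 27 genes, Dp1Tyb 5 for 5 and Dp1Tyb 2 for 3. WT 5 had the lowest for 10 and WT 1 for 5. The same counts were not made over all genes tested, so it is open whether they are particular to the list. The widest spread between mice of 1 genotype belonged to Gabre, followed by Gabrb1, Reln, Erbb4 and Pvalb, and the narrowest to Gabra5, Abat, Lhx6 and Cnr1. Without Dp1Tyb 4, the called genes of the list fell from 3 to Cnr1 alone, and without WT 4, WT 5 or Dp1Tyb 2 the count was also 1. Calls fell over all genes too in these 4 fits, from 191 to 145, 105, 127 and 105 in the same order. Without WT 2 the called genes of the list were Cnr1 and Vip, and 138 genes were called in all.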

How the data were processed

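Whole hippocampus of 5 WT and 5 Dp1Tyb mice was analysed, 1 library each, grouped by the genotype in the labels. Per the labels and the study's methods, poly(A) stranded libraries were sequenced as paired ends, and the authors trimmed reads with Trim Galore, mapped them to GRCm38 with TopHat2 (version 2.0.12), discarded reads with several alignments and counted reads per gene with HTSeq. The strand setting and annotation release are not given in the sources used here, so genes that overlap another gene are uncertain. The deposited counts are whole reads per gene, not normalized. A deposited table of size-factor-normalized values and a deposited table of the authors' DESeq2 (version 1.6.3) fold changes and p-values were not used.

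Symbols, positions and exon lengths came from GENCODE M21, and 1081 of the 43629 identifiers had no match. Counts were filtered with filterByExpr, scaled by TMM and tested in edgeR 4.0.16 (R 4.3.3) with the quasi-likelihood F-test, Benjamini-Hochberg adjusted over 17237 genes, with a threshold of 0.05. CPM values are TMM-scaled, RPKM values divide them by the summed exon length, and the SE is the log2 fold change over the square root of its F. The procedure was tested on simulated data. Alternatives were median-of-ratios scaling, TMM outside the duplicated segment, no filter, DESeq2 1.42.0, limma 3.58.1 with voom, a replicate block, and leaving out each mouse. Promoters came from RefSeq (GRCm38.p6).

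The 27 genes, the wider list and the marker lists were chosen with earlier results of these data known. Named were all 27 genes and, of the wider list, the called genes and in any case the 4 with the lowest p, with receptor genes of a cluster (within 2 Mb) given together. No library was a copy of another (smallest chi-square per degree of freedom of 45 pairs, 4.886). The labels name no batch or date, so no within-batch values could be given. Each library is a separate mouse, so p-values cover the spread between these mice.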

Additional observations from a re-analysis of the deposited data

Results flagged for a closer look

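Each of 35 genes was checked for a mouse far from the other 4 of its genotype, and 5 of the 70 groups held one, where chance gives about 3.5. Lhx6 in Dp1Tyb 5 stood at 22.4 CPM, above the other Dp1Tyb mice at 20.3 to 20.8 CPM, and without this mouse the log2 fold change was 0.19 instead of 0.21. Cck in WT 5 stood at 186 CPM, above the other WT mice at 139 to 152 CPM, and without this mouse the log2 fold change turned from -0.02 to 0.06. Gabrg3 in Dp1Tyb 1 stood at 24.5 CPM, below the others at 27.6 to 28.8 CPM. Abat in WT 1 stood at 273 CPM, below the others at 287 to 292 CPM. Tac2 in WT 2, the library with cerebellar reads, stood at 2.79 CPM, above the others at 1.77 to 2.02 CPM and below every Dp1Tyb mouse.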

How the results depend on the processing

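The genes called among the 27 numbered 6 with DESeq2, which called 506 of all genes (3.15% of those with an adjusted p). They numbered 3 with median-of-ratios scaling, scaling on genes outside the duplicated segment, no filter and voom, which called 184, 212, 196 and 186 of all genes. Leaving out each mouse gave 1 to 3 called genes of the list and 105 to 218 of all genes. Of the wider list, 2 genes were called with scaling outside the duplicated segment, with no filter and with voom (Tac2 and Htr3a), 3 with DESeq2 (Tac2, Htr3a and Nsf), and 1 to 2 when each mouse was left out. The count of positive log2 fold changes stayed between 20 and 23 of 27 and the count without overlap between 6 and 8 under the alternatives run for each, with 8 both without WT 2 and without Dp1Tyb 1. Groups of 4 overlap less often than groups of 5 by construction. The direction of 4 genes turned on single mice, with log2 fold changes from -0.0783 to 0.0563 for Cck, -0.162 to 0.128 for Gabrb1, -0.0263 to 0.0544 for Gabrg1 and -0.0917 to 0.00925 for Sst. Without WT 2, small uncalled log2 fold changes moved from 0.03 to 0.01 for Nlgn2, from 0.07 to 0.04 for Gabra3, from 0.01 to 0.03 for Gabrg1 and from 0.23 to 0.10 for Gabrq. Scaling moved the median of all genes by less than 0.1 on the log2 scale. The deviations of same-numbered mice correlated at 0.194, -0.0507, 0.206, -0.0762 and 0.266, with other pairs from -0.444 to 0.476. These ranges overlapped, so the correlations could not decide whether the replicate numbers mark pairs of mice. With the replicate block, 315 genes were called in all, 4 of the 27 (with Gad1 added) and 3 of the wider list (Tac2, Htr3a and Nos1), and the granule cell marker C1ql2 was called (adjusted p = 0.0199). The cause of these changes was not tested. Depth limits Gabre, with 7 to 26 reads per library, and the differences that 5 mice per genotype can resolve limit the others.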
